A study of Drosophila melanogaster with 18 samples.

Results

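The loss of the polarity gene scrib changed the RNA of Drosophila melanogaster eye-antennal discs differently when the transcription factor gene fos was mutated as well, and that dependence is described here gene by gene. The measure was the interaction, selected by genotype label as the log2 change from fos to the scrib fos double mutant minus the log2 change from control to scrib. It rests on 12 of the 18 libraries of the series, 3 for each of 4 genotypes, and was tested in 10834 genes. An interaction below 0 means that a gene was raised less, or lowered more, by scrib loss in the fos mutant than with fos intact, and an interaction above 0 means the opposite. The discs are the larval epithelia from which the eye and the antenna of the adult form, taken in the third larval instar from flies reared at 25°C. All genotypes carried eyFLP, a flippase under eyeless control, and an FRT82B chromosome with a cell-lethal mutation. Over that chromosome stood FRT82B alone in control, FRT82B scrib1 in scrib, FRT82B fosKM in fos and FRT82B scrib1 fosKM in scrib fos. The flippase acts only where eyeless is expressed, so the disc cells are a mosaic in which the cell-lethal arm removes much of the tissue not homozygous for the tested arm. Each library was made from sorted cells, with RNA from sorts on several days combined. How the cells were gated is not stated in the labels, and nothing there ties libraries of a genotype to separate animals. The p-values therefore reflect only how far these samples varied, which may be technical variation. The remaining 6 libraries (CtBP87De-10, called CtBP, and CtBP87De-10 scrib1, called CtBP scrib, on the same eyFLP and cell-lethal chromosomes) gave a response to scrib loss in samples that the interaction does not use.

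As background, Scribble is a scaffold protein of the basolateral membrane, and disc cells that lack it lose apical-basal polarity. Polarity loss in discs is known to activate the Jun N-terminal kinase (JNK) cascade, at whose end the AP-1 factors Fos (encoded by kay) and Jun (encoded by Jra) act. It is also known to activate Yorkie, the co-activator that the Hippo kinases restrain. JNK and AP-1 are known in flies for wound repair, for the remodelling of matrix and cytoskeleton, and for the induction of the Unpaired cytokines that signal through JAK/STAT.

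The 12 libraries held 25672312 to 35510575 counts, and levels below are CPM, counts scaled to a common library total with TMM factors, which compare samples but not genes of different length. Replicate 1 of each of the 4 genotypes had the highest share of Hsp70 heat shock transcripts of its genotype, 0.303% to 0.744% against at most 0.0883% in the other libraries. Without replicate 1 of every genotype the interaction was called in 2216 genes in place of 2517. Exons of some genes named below overlap those of another gene (Mmp1 and Pof, Ilp8 and CG7730, Tig and CG13982, cher and cal1, Ets21C and nAChRbeta3, Tdc1 and Rpp25, insc and sktl, Timp and Syn, Jra and RpLP0-like, et and Zw, grnd and kon, phr and Prosalpha1, Spn43Aa and CG12828, Nox and CG8060, Diap1 and an antisense RNA). The labels do not say whether strand was used in counting, and reads of such pairs could not be separated. In the first 2 principal components of the 12 libraries, which held 55.9% and 20.8% of the variance, the scrib fos libraries lay apart from the other 3 genotypes. On the first they lay between control and fos (-36.7 to -31.3) and scrib (48.4 to 50.4), at 16.4 to 23.1, and on the second they lay below all others (-40.5 to -30.2 against 0.744 to 25.6).

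Of the mutated genes, kay (FBgn0001297; 3R, dm6 positions 29765995 to 29794113) was at 134, 84.1 and 108 CPM in control, 226, 205 and 213 in scrib, 91.5, 107 and 111 in fos, and 151, 119 and 146 in scrib fos. The scrib libraries lay above those of the other genotypes, and those of scrib fos above those of fos, so the fosKM allele was not seen as a loss of the transcript. The interaction of kay was -0.55 (SE 0.19, adjusted p = 0.0479), a call that was lost in 8 of the 12 fits that left out 1 library (adjusted p 0.0627 to 0.104), and with DESeq2 size factors (0.0578), no filter on low counts (0.116) or a fit of the 4 genotypes alone (0.132). The scrib transcript was at 473 ± 11.8 CPM in control, 411 ± 50 in scrib, 473 ± 9.08 in fos and 438 ± 10.9 in scrib fos (mean ± SD of 3 libraries, as throughout), with an interaction of 0.09 (SE 0.10, adjusted p = 0.584). Transcript levels therefore did not check the scrib1 or fosKM labels.

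The response to scrib loss depended on fos in 2517 of the 10834 genes, 23.2% (adjusted p below 0.05 in edgeR's quasi-likelihood test). The interaction was below 0 in 1372 genes (12.7%) and above 0 in 1145 (10.6%), and in 677 of the called genes it was at least 2-fold, 443 below and 234 above. The median over all tested genes was -0.00171. Scrib loss itself changed 5796 genes in scrib against control (53.5%, 3014 or 27.8% raised and 2782 or 25.7% lowered) and 5138 in scrib fos against fos (47.4%, 2491 or 23.0% raised and 2647 or 24.4% lowered). These responses share no library, so their calls can be set side by side. Of the 3014 genes raised with fos intact, 1574 were also raised in the fos mutant, 168 were lowered and 1272 were not called. The interaction was called below 0 in 608 of those 1272. In the 1574 it was called below 0 in 259 and above 0 in 41. Of the 2782 genes lowered with fos intact, 1792 were also lowered, 81 were raised and 909 were not called. The interaction was called above 0 in 343 of those 909. In the 1792 it was called above 0 in 386 and below 0 in 73. Another 836 genes were raised and 687 lowered in the fos mutant and not called with fos intact. The interaction was called in 276 of the former and 243 of the latter. A call in a single background therefore does not by itself show dependence on fos. Across genes, which are not independent replicates, the log2 changes had a Pearson r of 0.622. In bulk samples, fewer cells of a type and less RNA per cell cannot be told apart, which bears on every level given here.

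**Figure D1:**
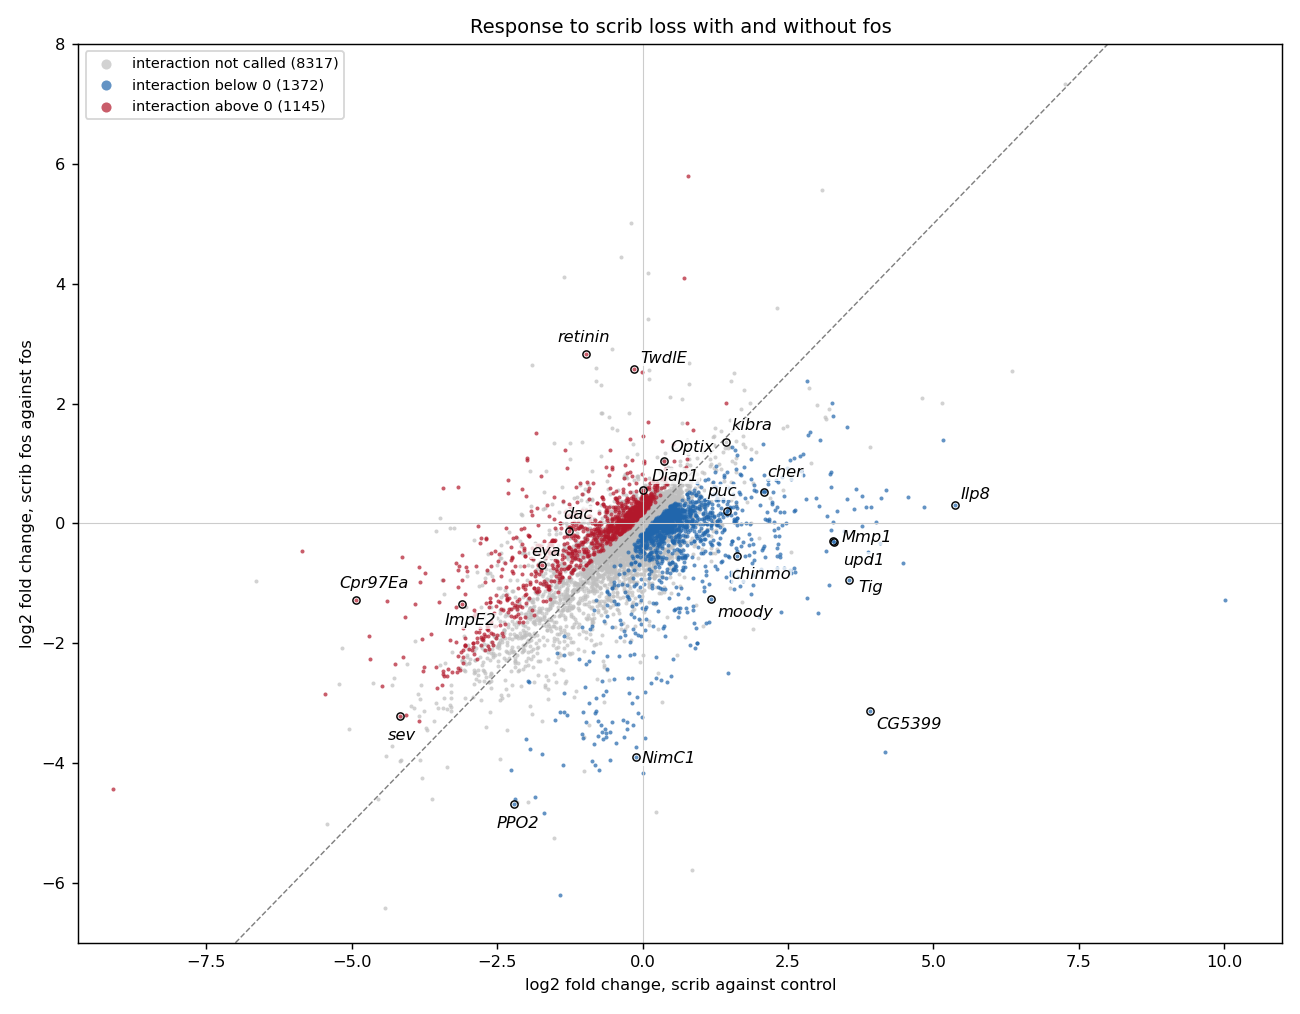
Log2 fold change of each tested gene in scrib against control (x axis) and in scrib fos against fos (y axis); the dashed line marks equal responses. The 1372 genes with an interaction below 0 (blue) lie below the line, many of them near 0 on the y axis, and the 1145 genes above 0 (red) lie above it; kibra, on the line, was not called.

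Of the 12 tested JNK and AP-1 target genes, 9 rose and 2 fell with scrib loss when fos was intact, and 5 rose and 1 fell when it was not. In 9 of the 12 the interaction was below 0 and in none above (75% called, against 23.2% of all tested genes), and the median interaction of the list was -1.09. Its median change was 1.66 in scrib against control and 0.19 in scrib fos against fos. Ilp8 (FBgn0036690; 3L, dm6 positions 17029812 to 17032080), a relaxin-like hormone that damaged or overgrowing discs release to delay pupariation, was at 3.11, 0.613 and 1.41 CPM in control, 61.6, 69.7 and 83 in scrib, 1.45, 0.793 and 0.93 in fos, and 1.51, 1.29 and 1.11 in scrib fos. Only the scrib libraries were high, and those of fos and scrib fos overlapped. The interaction was -5.06 (SE 0.64, adjusted p = 5.97e-05).

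Mmp1 (FBgn0035049), a secreted protease that cuts extracellular matrix, was at 74.9, 46.5 and 41.6 CPM in control, 551, 523 and 509 in scrib, 36, 36.2 and 43.3 in fos, and 36.7, 26.6 and 31 in scrib fos. The scrib libraries lay several-fold above all others, and the scrib fos values overlapped those of fos. Its interaction was -3.57 (SE 0.27, adjusted p = 6.17e-07). puc (FBgn0243512; 3R, dm6 positions 8105332 to 8122294), the phosphatase that switches JNK off and is used as its reporter, was at 48.5, 40.4 and 46.1 CPM in control, 125, 123 and 123 in scrib, 39.4, 37.2 and 40.3 in fos, and 50.9, 42.2 and 41.5 in scrib fos. The 3 scrib libraries stood above the rest and did not overlap them, while the scrib fos libraries lay just above those of fos. The change was 1.46 with fos intact and 0.20 (adjusted p = 0.0243) without it, for an interaction of -1.25 (SE 0.10, adjusted p = 1.46e-08).

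The other called targets differed in how much of the response was left without fos. For scaf, a secreted protease homologue, a rise remained: it rose by 1.87 with fos intact and by 1.08 (adjusted p = 2.57e-10) in the fos mutant, and the interaction was -0.79 (SE 0.10, adjusted p = 5.85e-06). For cher, which encodes filamin, levels were 254 ± 18.1 CPM in control and 1079.9 ± 105 in scrib, and 249 ± 13.4 in fos and 357 ± 43.8 in scrib fos. Its interaction was -1.57 (SE 0.13, adjusted p = 5.81e-08). For the transcription factor genes Ets21C and Atf3 no rise was called in the fos mutant (-1.02, adjusted p = 0.134, and -0.12, adjusted p = 0.351), and their interactions were -2.93 and -0.93. The apoptosis gene rpr had the smallest called interaction of the list, -0.49 (SE 0.14, adjusted p = 0.0119). Gadd45, Swim and Ance were not called (0.41, 0.31 and -0.07), and Ance, a secreted peptidase, fell by similar amounts in both backgrounds (-0.76 and -0.84).

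Within the JNK cascade, 6 of 17 genes had an interaction below 0 and 3 above (52.9% called, against 23.2% of all tested genes). The core kinases hep and bsk were not called (-0.06 and 0.06). Below 0 were puc, the kinase genes msn (-0.64) and Mkk4 (-0.73), the TNF receptor gene grnd (-0.47), Jra (-0.47) and kay. Mkk4 was at 110.2, 108 and 111 CPM in control, 118, 119.9 and 119 in scrib, 145, 162 and 151 in fos, and 104, 101 and 94.2 in scrib fos. It was higher in fos than in the other 3 genotypes, without overlap, and lowest in scrib fos, so scrib loss raised it by 0.12 (adjusted p = 0.0328) with fos intact and lowered it by 0.62 (adjusted p = 9.64e-10) without fos. Above 0 were the second TNF receptor gene wgn (0.54), Traf4 (0.78) and egr, the TNF ligand itself (0.31), whose call was lost in 5 of the 12 fits that left out 1 library. The transcript of egr fell in both backgrounds, by 1.46 with fos intact and by 1.14 without.

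**Figure D2:**
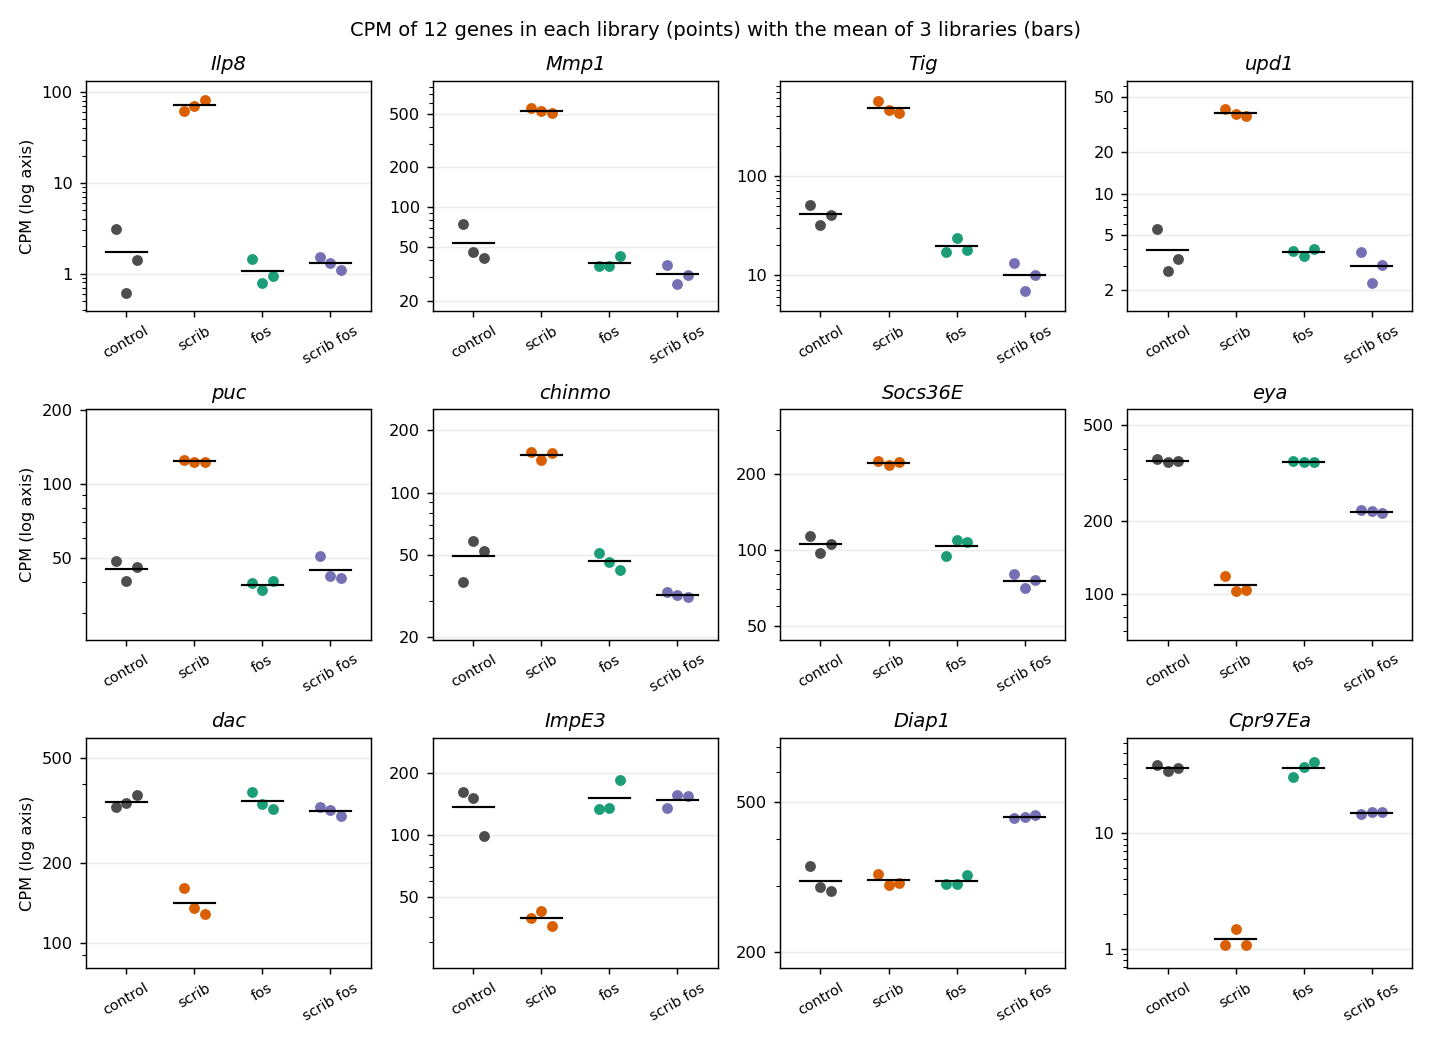
CPM of 12 genes in each of the 12 libraries on log axes, with bars at the mean of 3 libraries. Ilp8, Mmp1, Tig, upd1, puc, chinmo and Socs36E are high only in scrib; eya, dac, ImpE3 and Cpr97Ea are lowest in scrib; Diap1 is highest in scrib fos.

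Of 10 tested JAK/STAT genes 7 rose in scrib against control, while in scrib fos against fos 1 rose and 3 fell. In 6 the interaction was below 0 and in none above (60% called, against 23.2% of all tested genes), with a median of -1.40. upd1 (FBgn0004956; X, dm6 positions 18305354 to 18309291), a cytokine ligand of the pathway, was at 5.57, 2.78 and 3.35 CPM in control, 40.9, 37.7 and 36.7 in scrib, 3.88, 3.52 and 3.95 in fos, and 3.76, 2.26 and 3.04 in scrib fos. Its scrib libraries lay far above all others, and control, fos and scrib fos overlapped. The interaction was -3.61 (SE 0.26, adjusted p = 3.19e-08). Socs36E, a feedback inhibitor and common readout of the pathway, was at 114, 97.1 and 106 CPM in control, 226, 217 and 224 in scrib, 94.5, 109 and 108 in fos, and 79.9, 70.3 and 75.9 in scrib fos. It was highest in scrib and lowest in scrib fos, and the control and fos values overlapped. Scrib loss raised it by 1.07 with fos intact and lowered it by 0.46 (adjusted p = 6.16e-05) in the fos mutant, and the interaction was -1.54 (SE 0.11, adjusted p = 3.71e-09). chinmo (FBgn0086758; 2L, dm6 positions 1651258 to 1704682), a zinc finger factor of early temporal identity that STAT is known to raise, was at 36.9, 58.3 and 52.5 CPM in control, 157, 143 and 155 in scrib, 51, 46.4 and 42.1 in fos, and 33, 32.1 and 31.2 in scrib fos. It showed the same order, with scrib highest and scrib fos below the control and fos libraries, and an interaction of -2.16 (SE 0.19, adjusted p = 7.8e-07). The receptor gene dome (-0.47), the inhibitory receptor gene et (-1.37) and the phosphatase gene Ptp61F (-0.18) were also below 0, while hop and Stat92E, the kinase and the factor, were not called (-0.01 and -0.12).

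The cytokine genes upd2 and upd3 were high in all 3 scrib libraries but varied within control and within scrib fos, and their interactions were not called. upd2 was at 5.74, 0.216 and 0.317 CPM in control, 21.5, 16.7 and 18.5 in scrib, 0.261, 0.444 and 0.504 in fos, and 3.46, 0.185 and 0.454 in scrib fos, and upd3 at 1.67, 0.433 and 0.317 CPM in control, 13.6, 11.7 and 11.7 in scrib, 0.224, 0.381 and 0.0775 in fos, and 1.41, 0.037 and 0.284 in scrib fos. In control and in scrib fos, replicate 1 was the highest of its genotype for both genes, which are the libraries with the highest Hsp70 shares, and the part of this in the result was not tested. The interactions were -1.42 (SE 1.77, adjusted p = 0.639) for upd2 and -2.64 (SE 1.31, adjusted p = 0.179) for upd3.

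Secreted growth factors and their receptors were called below 0 in 9 of 20 genes and above 0 in 2. That was 55% of the list, against 23.2% of all tested genes. The PDGF- and VEGF-related ligand genes moved together: Pvf1 had an interaction of -1.97 (SE 0.16, adjusted p = 4.76e-08), Pvf3 of -2.24 (SE 0.18, adjusted p = 5.46e-08) and Pvf2 of -1.23 (SE 0.23, adjusted p = 0.00132). Pvf3 was at 11.9, 10.4 and 7.33 CPM in control, 53.9, 54.6 and 50.8 in scrib, 8.46, 10.1 and 10.6 in fos, and 11.5, 10.2 and 11.4 in scrib fos, with every scrib library above 50 CPM and no other library above 12. Their receptor gene Pvr fell below the fos level in scrib fos (46.6 ± 3.05 against 69.8 ± 8.28 CPM) and rose in scrib (136 ± 11 against 82.3 ± 10.4 in control), for an interaction of -1.31 (SE 0.15, adjusted p = 1.17e-05). Ilp6, an insulin-like peptide gene expressed here at a few CPM, was also raised in one background and lowered in the other (1.13 and -1.01), with an interaction of -2.14 (SE 0.23, adjusted p = 7.93e-07). The insulin-binding antagonist ImpL2 rose in both (1.12 and 0.74), and its interaction of -0.38 (SE 0.13, adjusted p = 0.0353) was lost in 8 of the 12 fits that left out 1 library. Also below 0 were the FGF receptor gene htl (-0.97) and its ligand gene pyr (-0.82), both lowered more in scrib fos. Above 0 were the FGF ligand gene bnl (0.54, SE 0.12, adjusted p = 0.00183) and, with a call lost in 8 of those fits, jeb (0.86).

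Among genes named for the size of their interaction alone were the tyrosine decarboxylase genes Tdc1 and Tdc2, which make tyramine, and aspr. Tdc1 was at 3.45, 2.63 and 2.64 CPM in control, 63.7, 68.1 and 76.2 in scrib, 2.27, 2.66 and 3.33 in fos, and 6.15, 2.14 and 2.87 in scrib fos, and its interaction was -4.13 (SE 0.43, adjusted p = 1.06e-05). Every scrib library was at least 10 times any other, and fos and scrib fos overlapped. Tdc2 rose from 0.746 ± 0.216 to 12.2 ± 2.35 CPM with fos intact and was at 0.854 ± 0.196 and 0.881 ± 0.461 in fos and scrib fos (interaction -3.99). aspr was at 4.26 ± 1.06, 58.4 ± 3.51, 3.12 ± 0.282 and 2.99 ± 0.895 CPM in control, scrib, fos and scrib fos (interaction -3.82). The unnamed gene CG5399 had the largest interaction among genes called in all 12 fits that left out 1 library, with a mean of at least 10 CPM in a genotype. It was at 0.683, 1.05 and 0.423 CPM in control, 11, 9.26 and 12.2 in scrib, 1.12, 1.81 and 2.05 in fos, and 0.202, 0.222 and 0.142 in scrib fos. It was raised in scrib and reduced in scrib fos below every other library (-7.05, SE 0.56, adjusted p = 4.71e-08).

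Genes best known from other tissues also had large interactions below 0. insc, an adaptor of spindle orientation in neuroblasts, was at 12.1, 11.4 and 11.5 CPM in control, 64, 63.3 and 66.4 in scrib, 7.57, 9.35 and 10.3 in fos, and 10.7, 7.91 and 8.71 in scrib fos. Only the scrib libraries were high, and fos and scrib fos overlapped. The interaction was -2.47 (SE 0.16, adjusted p = 2.89e-09), while other neuroblast genes on the same list, dpn and ase, fell in both backgrounds and were not called (0.09 and 0.01). moody, a receptor of the glial blood-brain barrier, was at 32.2, 25.4 and 30.1 CPM in control, 70, 65.3 and 64 in scrib, 21, 22.7 and 22.9 in fos, and 11.2, 8.39 and 8.26 in scrib fos. Scrib loss raised it with fos intact and lowered it without, with no overlap between any mutant with scrib loss and its reference, and the interaction was -2.45 (SE 0.14, adjusted p = 7.21e-10). The glial factor gene repo went the other way: it fell in both backgrounds, by 1.83 and 1.12, with an interaction of 0.71 (SE 0.17, adjusted p = 0.0035). The glial markers summed to 198 to 211 CPM in control and 172 to 187 in scrib. In fos the sum was 183 to 194 CPM and in scrib fos 115 to 123. It includes moody itself, at a mean of 66.5 CPM in scrib and 9.27 in scrib fos. The part of this sum in these results was not tested. The nuclear receptor genes kni and knrl had interactions of -1.20 (SE 0.14, adjusted p = 4.16e-06) and -1.49 (SE 0.10, adjusted p = 9.69e-10).

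The matrix and its integrin receptors depended on fos in 14 of 21 tested genes, 12 below 0 and 2 above, with a median interaction of -0.62. The called share was 66.7%, against 23.2% of all tested genes. Tig (FBgn0011722; 2L, dm6 positions 6415179 to 6423310), the integrin ligand tiggrin, was at 50.4, 31.6 and 40.5 CPM in control, 559, 453 and 431 in scrib, 17.1, 23.4 and 18 in fos, and 13.3, 6.91 and 10.1 in scrib fos. The scrib libraries were the highest and the scrib fos libraries the lowest, with no overlap between fos and scrib fos. Its change was 3.56 with fos intact and -0.95 (adjusted p = 0.0091) without, for an interaction of -4.50 (SE 0.35, adjusted p = 9.52e-07). The metalloprotease inhibitor gene Timp rose with Mmp1 in scrib (11.9 ± 0.87 to 30.3 ± 1.69 CPM) and was at 11.2 ± 1.44 and 13.3 ± 1.05 in fos and scrib fos (interaction -1.09, SE 0.15, adjusted p = 2.12e-05). Mmp2, the membrane-anchored protease gene, instead fell in both backgrounds (-1.60 and -1.26), and its interaction was above 0 (0.33, SE 0.10, adjusted p = 0.0177). The integrin subunit genes mys (-0.62, SE 0.07, adjusted p = 1.1e-06) and scb (-1.27, SE 0.25, adjusted p = 0.0026) and the linker genes rhea, which encodes talin (-0.78), and Ilk (-0.23) were below 0, while the alpha subunit genes if and mew were not called (0.03 and 0.19). The laminin genes LanA, LanB1 and LanB2 were not called either (-0.14, 0.09 and 0.06). The second gene above 0 was the integrin beta subunit gene Itgbn (0.82), whose call was lost without scrib fos replicate 2.

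Collagen IV differed from these genes in where the change lay. vkg, one of its chain genes, was at 33.1, 34.8 and 50.4 CPM in control, 34.5, 31.4 and 35.9 in scrib, 34.2, 41.6 and 35.5 in fos, and 9.37, 8.65 and 10 in scrib fos. Control, scrib and fos overlapped, and all 3 scrib fos libraries lay below them. Col4a1, the other chain gene, was at 58.9 ± 12.4, 50.7 ± 3.9, 58.6 ± 4.99 and 12.8 ± 2.12 CPM in control, scrib, fos and scrib fos. The interactions were -1.77 (SE 0.28, adjusted p = 0.000347) and -1.98 (SE 0.30, adjusted p = 0.000294), and no change was called in scrib against control (adjusted p = 0.357 and 0.391). SPARC, a collagen-binding matrix protein, had an interaction of -0.95 (SE 0.17, adjusted p = 0.000541), Ndg, which encodes nidogen, of -2.72 (SE 0.61, adjusted p = 0.00262), and trol, which encodes perlecan, of -0.78 (SE 0.13, adjusted p = 0.000258). These genes are also expressed by blood cells, whose markers fell in the same libraries, and the part of blood cells in the result was not tested. The sum over 12 markers was 368 to 432 CPM in fos and 118 to 139 in scrib fos. It includes the marker crq, which was not called, and the median change of the 12 was -3.34. Tig and Mmp1 were high in scrib, where the markers summed to 258 to 299 CPM against 433 to 609.5 in control. PPO1 and PPO2 made up means of 84.7 and 112 CPM of the control sum and 18.5 and 24.1 of the scrib sum. Smaller falls were called for eater (-0.87), Hml (-0.83) and srp (-0.53), and none for NimC1 (-0.12) and Sr-CI (-0.17). The sum is therefore no even measure of blood cells in scrib. In scrib fos against fos Tig and the markers were both lower. The part of blood cells in the levels of Tig and Mmp1 was not tested.

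Markers of blood cells, which attach to discs and are not disc epithelium, were the list with the largest fall in scrib fos. Of 12 tested, 11 had an interaction below 0 and none above (91.7% called, against 23.2% of all tested genes), with a median of -2.62. The median change was -0.43 in scrib against control and -3.34 in scrib fos against fos. The summed level of the 12 was 433 to 609.5 CPM in control, 258 to 299 in scrib, 368 to 432 in fos and 118 to 139 in scrib fos, and no marker was at 0 in any library. NimC1 (FBgn0259896; 2L, dm6 positions 13973158 to 13976769), a phagocytic receptor of plasmatocytes, was at 9.53, 9.92 and 12.8 CPM in control, 9.52, 8.02 and 12.2 in scrib, 8.27, 11.2 and 11.3 in fos, and 0.874, 0.629 and 0.568 in scrib fos. Control, scrib and fos overlapped, and the scrib fos libraries were all below 1 CPM. Its interaction was -3.78 (SE 0.36, adjusted p = 9.84e-07). eater, another phagocytic receptor, had an interaction of -3.10 (SE 0.43, adjusted p = 0.000151), Hml (hemolectin) of -2.86 (SE 0.53, adjusted p = 0.00171), and srp, the GATA factor of blood cells, of -2.78 (SE 0.31, adjusted p = 1.2e-06). PPO1 and PPO2, prophenoloxidases of crystal cells, also fell in scrib (-2.20 and -2.21), and fell further in scrib fos (-4.60 and -4.68), so their interactions of -2.40 and -2.47 are on the log scale only and were of the opposite sign for differences in CPM. The scavenger receptor gene crq, whose exons overlap those of ex, was not called (-0.12) and alone made up 67.5 to 89.3 CPM of the scrib fos sum, and the calls of NimC2 and ush were lost in 6 and 7 of the 12 fits that left out 1 library. Outside the list, 2 genes named for their size were low in the same libraries: fat-spondin fell from 15 ± 3.47 in fos to 1.67 ± 0.22 CPM in scrib fos and Glt, a basement membrane glycoprotein, from 60.6 ± 11.3 to 5.09 ± 0.637.

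**Figure D3:**
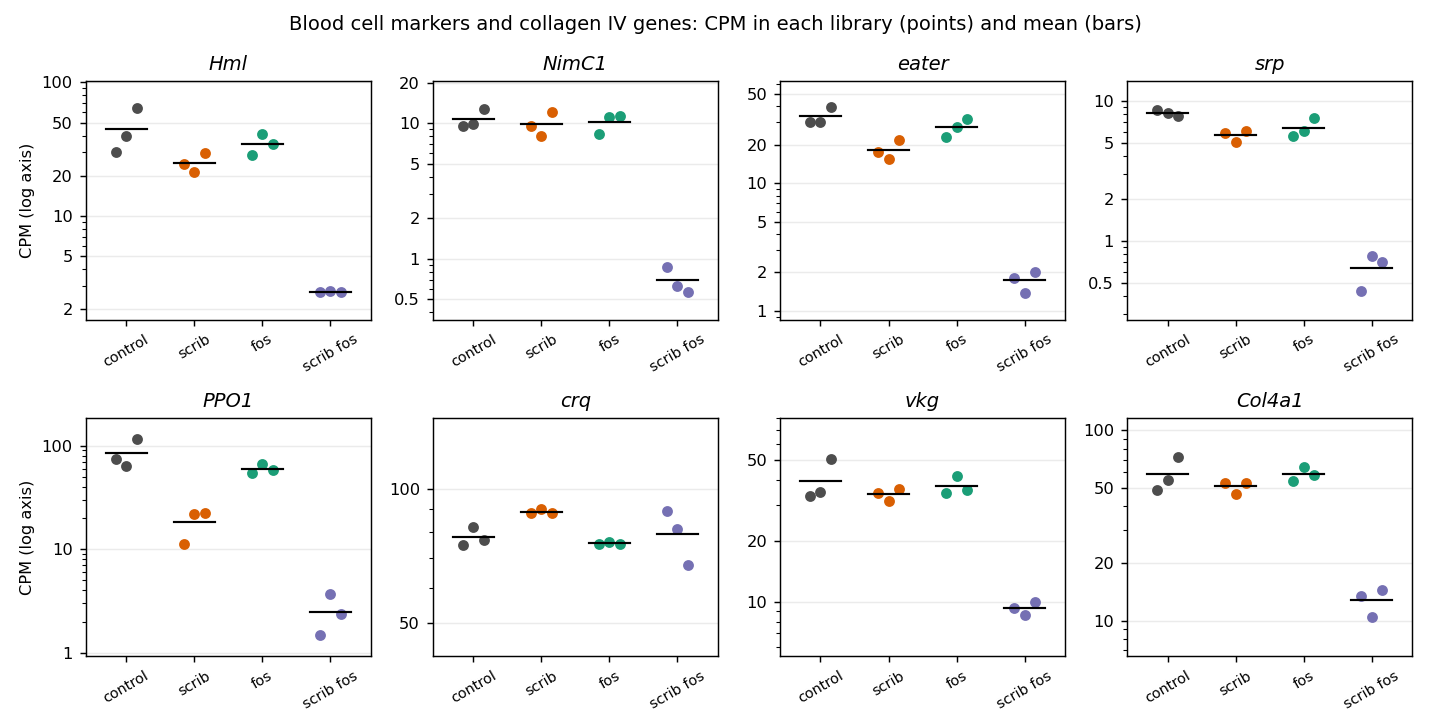
CPM in each of the 12 libraries, on log axes with bars at the mean of 3 libraries, for 6 blood cell markers and the collagen IV genes vkg and Col4a1. In every panel except crq the 3 scrib fos libraries lie below all other libraries.

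Of 17 tested genes of actomyosin and its regulators, 12 rose and 1 fell in scrib against control, and 6 rose and 3 fell in scrib fos against fos. In this list 12 had an interaction below 0 and 1 above (Actn, 0.22), with a median of -0.42. Called were 76.5% of the list, against 23.2% of all tested genes. The list had medians of 0.52 in scrib against control and 0.09 in scrib fos against fos. After cher, the largest was Zasp52, a scaffold of actin bundles (-1.22, SE 0.10, adjusted p = 1.18e-08), and then Fim, which encodes fimbrin (-0.89, SE 0.08, adjusted p = 1.45e-07). The myosin light chain gene sqh was at 196, 198 and 184 CPM in control, 319.6, 335 and 359 in scrib, 161, 166 and 167 in fos, and 172, 184 and 197 in scrib fos. The scrib libraries were highest without overlap, and the scrib fos libraries lay above those of fos and overlapped those of control. Its interaction was -0.64 (SE 0.08, adjusted p = 2.52e-06). Rho1 (-0.42), the formin gene dia (-0.48) and the profilin gene chic (-0.42) were also below 0, and Rok and RhoGEF2 were not called (-0.04 and -0.14). The calls of Actn and Act5C were lost in 5 and 7 of the 12 fits that left out 1 library.

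The polarity genes changed less. In 15 genes of apical-basal polarity and adherens junctions, 6 interactions were below 0 and none above, at -0.43 or smaller in size: l(2)gl (-0.43), sdt (-0.40), aPKC (-0.33), par-1 (-0.32), baz (-0.30) and par-6 (-0.28). These were 40% of the list, against 23.2% of all tested genes. shg, the E-cadherin gene, was not called (-0.05). Of 20 septate junction genes only bou was called, 5% of the list (0.32, lost in 5 of the 12 fits that left out 1 library). Without scrib replicate 3, 2 septate junction genes were called below 0. In this list 10 genes rose and 2 fell in scrib against control, and 8 rose and 1 fell in scrib fos against fos.

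Of 13 genes that Yorkie is known to raise, 9 rose and 3 fell in scrib against control, and 9 rose and 1 fell in scrib fos against fos. Of the 13, 3 had an interaction below 0 and 3 above (46.2% called, against 23.2% of all tested genes), with a median of -0.02. The median change was 0.31 in scrib against control and 0.49 in scrib fos against fos. kibra, an upstream Hippo regulator that Yorkie induces, was at 48.4, 45.6 and 42.4 CPM in control, 135, 119.9 and 112 in scrib, 46.8, 43.1 and 47.8 in fos, and 116, 113 and 124 in scrib fos. Both mutants with scrib loss lay above both references, and the scrib and scrib fos values overlapped. Scrib loss raised it by 1.43 with fos intact and 1.36 without, and the interaction of -0.07 (SE 0.10) had an adjusted p of 0.685. ex, another such regulator, was at 494, 504 and 511 CPM in control, 957, 826 and 787 in scrib, 497, 488 and 482 in fos, and 978, 978 and 975 in scrib fos. It rose in both backgrounds, by 0.77 and 1.00, and its interaction missed the threshold (0.23, SE 0.08, adjusted p = 0.052). The glypican gene dlp was likewise not called (-0.03), and dally was called with a small difference (-0.25, lost in 2 of the 12 fits that left out 1 library).

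Called above 0 in this list were Diap1, CycE and E2f1. Diap1 (FBgn0260635; 3L, dm6 positions 16038410 to 16051034), the caspase inhibitor, was at 339, 299 and 291 CPM in control, 324, 303 and 305 in scrib, 304, 304 and 322 in fos, and 455, 456 and 463 in scrib fos. The 3 scrib fos libraries lay above all others, and control, scrib and fos overlapped. Its interaction was 0.56 (SE 0.07, adjusted p = 9.72e-06). CycE, the cyclin of S phase entry, rose by 0.31 with fos intact and by 0.73 without (interaction 0.42, SE 0.07, adjusted p = 0.000251). Called below 0 were dally, Myc (-0.61) and fj, a kinase gene of the Fat and Dachsous system. fj rose in both backgrounds, by 1.22 and 0.49, for an interaction of -0.74 (SE 0.07, adjusted p = 7.52e-08). Without scrib replicate 1, the number above 0 in this list was 5 in place of 3. Among 18 Hippo pathway components 2 were below and 2 above 0 (22.2% called, near the 23.2% of all tested genes). The number below 0 was 1 with DESeq2's Wald test and under most other alternatives. The genes hpo, wts, sav, mats and yki were not called. The largest of the 4 was Wbp2, a co-activator of Yorkie, at 43.9, 41.7 and 42.3 CPM in control, 58.7, 64.8 and 63.2 in scrib, 30.1, 31.2 and 29.8 in fos, and 26.9, 24.3 and 23.1 in scrib fos. It was higher than control in scrib, lower than control in fos and lowest in scrib fos, with no overlap, and its interaction was -0.84 (SE 0.08, adjusted p = 1.25e-07). The calls of app and Fbxl7 were lost in 9 and 4 of the 12 fits that left out 1 library.

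Cell cycle genes rose more often than they fell in both backgrounds. Of 28 tested, 6 had an interaction above 0 and none below, which is 21.4% above 0 against 10.6% of all tested genes. Counting calls of either sign, the share of 21.4% was near the 23.2% of all tested genes. In scrib fos against fos 21 rose and 3 fell, and in scrib against control 16 rose and 6 fell. Besides CycE and E2f1 the called genes were CycB (0.21), Mcm3 (0.24), aurA (0.27) and aurB (0.36). Without replicate 1 of every genotype 12 of the list were called above 0. The calls of Mcm3 and aurA were lost in 6 and 5 of the 12 fits that left out 1 library. In the cell death list 4 of 13 genes were below 0, among them the caspase gene Drice (-0.28, SE 0.06, adjusted p = 0.003) and, at 1.39 CPM or less in every library, grim (-2.0), and Diap1 alone was above. The called share of that list was 38.5%, against 23.2% of all tested genes.

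Genes of eye specification mostly fell with scrib loss when fos was intact (8 of 13) and fell in 3 cases and rose in 7 when it was not. Of 13 retinal determination genes 11 had an interaction above 0 and none below (84.6% called, against 23.2% of all tested genes). The median interaction was 0.70. The median change was -0.44 in scrib against control and 0.29 in scrib fos against fos. eya (FBgn0000320; 2L, dm6 positions 6527447 to 6546976), a phosphatase and co-activator of the retinal network, was at 364, 352 and 356 CPM in control, 119, 103 and 103 in scrib, 354, 352 and 353 in fos, and 222, 219.7 and 216 in scrib fos. The scrib libraries were the lowest, those of scrib fos lay between, and control and fos overlapped. The fall was 1.72 with fos intact and 0.69 without, for an interaction of 1.04 (SE 0.09, adjusted p = 6.41e-08). dac, a nuclear factor of the same network, was at 326, 337 and 362 CPM in control, 161, 135 and 128 in scrib, 372, 334 and 320.3 in fos, and 325, 317 and 301 in scrib fos. It was low in scrib only, and the scrib fos libraries overlapped those of fos. Its interaction was 1.15 (SE 0.15, adjusted p = 1.67e-05).

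The paired nuclear factor genes dan and danr had the smallest p-values of the list, with interactions of 1.26 (SE 0.09, adjusted p = 4.88e-09) and 0.99 (SE 0.07, adjusted p = 5.08e-09). so had an interaction of 0.70 (SE 0.11, adjusted p = 9.41e-05). The Pax genes ey and toy were not lowered in scrib fos but raised (0.42, adjusted p = 0.00293, and 0.34, adjusted p = 0.0174), and their interactions were 0.62 and 0.70. Optix, which encodes a homeodomain factor, was at 81.9, 89.2 and 87.4 CPM in control, 122, 104 and 109 in scrib, 89.1, 84 and 88.5 in fos, and 166, 181 and 194 in scrib fos. It rose in both mutants with scrib loss and more in scrib fos, whose libraries lay above all others, with an interaction of 0.67 (SE 0.09, adjusted p = 1.59e-05). hth and tsh were not called (-0.01 and 0.13), and the call of tio was lost in 3 of the 12 fits that left out 1 library.

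Genes of photoreceptor and cone cell differentiation fell in both backgrounds, and less without fos. All 19 fell in scrib against control and 18 in scrib fos against fos, with medians of -2.01 and -1.48. Of the 19, 13 had an interaction above 0 and 1 below (Fas2, -0.36, or 2 genes without scrib fos replicate 1). The called share was 73.7%, against 23.2% of all tested genes. ato, the proneural gene that founds photoreceptors, was at 64.5, 59.9 and 59.8 CPM in control, 21.8, 19 and 19.6 in scrib, 60.2, 57.7 and 61.2 in fos, and 41.3, 46.4 and 41.9 in scrib fos. The scrib fos libraries lay between those of scrib and the references, without overlap, and the interaction was 1.14 (SE 0.12, adjusted p = 1.41e-06). The homeobox gene ro went from 17 ± 0.734 to 2.3 ± 0.294 CPM with fos intact and from 17.1 ± 0.464 to 6.03 ± 0.555 without (interaction 1.38, SE 0.16, adjusted p = 1.34e-06). For sev, the receptor kinase of the R7 cell, the falls were 4.18 and 3.22, and the interaction of 0.96 (SE 0.27, adjusted p = 0.0233) was lost in 3 of the 12 fits that left out 1 library. The general neuronal gene elav was not called (0.39, SE 0.16, adjusted p = 0.0971), nor were nerfin-1, pros, sv and futsch.

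All 14 Notch pathway genes and targets fell in scrib against control and 10 in scrib fos against fos, and 6 had an interaction above 0 and 1 below, with 7 not called (50% called, against 23.2% of all tested genes). The target E(spl)mgamma-HLH was at 70.1 ± 3.82, 11.3 ± 1.66, 64 ± 3.21 and 25.9 ± 3.33 CPM in control, scrib, fos and scrib fos (interaction 1.32, SE 0.16, adjusted p = 1.1e-05), and the receptor gene N and its ligand genes Delta and Ser were not called. Without scrib replicate 1 the number above 0 was 10. In the EGFR list 4 of 13 genes were above 0, 2 below and 7 not called (46.2% called), and 8 were above 0 without scrib replicate 1. Those above were the ligand-processing protease genes rho (0.66) and ru (1.22, SE 0.16, adjusted p = 4.44e-05), the secreted antagonist aos (0.61) and edl, a regulator of Pointed, which fell with scrib loss with fos intact and rose without (-0.71 and 0.44, interaction 1.14, SE 0.11, adjusted p = 9.07e-08). Those below were the ligand gene vn, which went from 23.4 ± 0.508 to 53.4 ± 7.36 CPM with fos intact and from 22.7 ± 0.346 to 31.7 ± 0.687 without (interaction -0.71, SE 0.10, adjusted p = 1.93e-05), and the inhibitor gene sty (-0.43). The BMP ligand gene dpp rose in scrib only (0.65, and -0.03 without fos, adjusted p = 0.709), with an interaction of -0.68 (SE 0.08, adjusted p = 3.33e-06), and its feedback target Dad had one of -0.60 (SE 0.08, adjusted p = 1.41e-05). wg was not called (0.18). In the antennal list 3 genes were below 0 and 3 above (46.2% called). Those above include dan and danr, which are also in the retinal determination list and were counted there. Dfd, a Hox gene of the head, was raised in scrib and lowered in scrib fos (0.61 and -0.56, interaction -1.16, SE 0.11, adjusted p = 9.07e-08).

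Ecdysone-response genes split, with 5 of 18 above 0 and 5 below (55.6% called, against 23.2% of all tested genes). The late genes ImpE1, ImpE2 and ImpE3, which act in disc eversion, were above. ImpE3 was at 162, 152 and 99.1 CPM in control, 39.4, 42.6 and 35.9 in scrib, 134, 135 and 186 in fos, and 135, 156 and 155 in scrib fos. It was low in scrib only, and the other genotypes overlapped. Its interaction was 1.78 (SE 0.29, adjusted p = 0.000626), and those of ImpE2 and ImpE1 were 1.75 (SE 0.30, adjusted p = 0.000944) and 1.53 (SE 0.32, adjusted p = 0.00337). The nuclear receptor gene Eip78C was also above 0 (1.12, SE 0.21, adjusted p = 0.00172). Control replicate 3 was the lowest library of its genotype for all 3 ImpE genes. Below 0 were the nuclear receptor gene ftz-f1 (-1.29, SE 0.27, adjusted p = 0.00373), Eip74EF (-0.32), EcR (-0.44) and, with calls lost in 10 and 8 of the 12 fits that left out 1 library, the hormone-degrading enzyme gene Cyp18a1 (-1.60) and ImpL2. Only 3 were below 0 without any one of 7 libraries (control replicates 2 and 3, fos replicates 2 and 3, scrib fos replicate 2 and scrib replicates 1 and 2). Of the temporal identity genes, the RNA-binding protein gene Imp followed chinmo: it was at 269 ± 13.8, 579.7 ± 43, 273 ± 10.2 and 306 ± 30.3 CPM in control, scrib, fos and scrib fos (interaction -0.95, SE 0.10, adjusted p = 9.84e-07). Its counterpart Syp was not called (0.32, SE 0.12, adjusted p = 0.0503).

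Glycolytic enzyme genes were above 0 in 10 of 12 cases and below in 1 (Hex-A, -0.25, lost in 6 of the 12 fits that left out 1 library), with a median of 0.47. The called share was 91.7%, against 23.2% of all tested genes. The list was near its reference in scrib (median -0.11) and above it in scrib fos (0.32), where 11 genes rose. Tpi was at 139, 128 and 129 CPM in control, 96.6, 96.7 and 101 in scrib, 124, 129 and 138 in fos, and 142, 158 and 193 in scrib fos. It was lowest in scrib and highest in scrib fos, without overlap between either mutant and its reference, and the interaction was 0.76 (SE 0.11, adjusted p = 5.31e-05). Pfk (0.58, SE 0.08, adjusted p = 2.97e-05), Pgi (0.46, SE 0.06, adjusted p = 1.08e-05) and Pgk (0.47, SE 0.07, adjusted p = 4.22e-05) fell with scrib loss when fos was intact and rose when it was not. Ldh varied between 15.9 and 194 CPM among the control libraries, with control replicate 1 the highest, and was not called (1.25, SE 1.06). The 13 heat shock genes gave 2 calls above 0 (15.4% of the list), Hsp27 (0.89, SE 0.13, adjusted p = 6.41e-05) and Hsp23, whose call was lost in 9 of the 12 fits that left out 1 library. The Hsp70 genes, near-identical copies, had standard errors above 2 and were not called.

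Redox and detoxification genes were called in 64.7% of cases and immune genes in 38.5%, against 23.2% of all tested genes. Of 17 redox and detoxification genes 6 were below 0 and 5 above. Below were Nox, an NADPH oxidase (-0.77, SE 0.13, adjusted p = 0.000164), the glutathione transferase gene GstD1 (-0.65, SE 0.14, adjusted p = 0.00271) and cnc, the Nrf2 factor (-0.55, SE 0.09, adjusted p = 7.99e-05), with mol, an activator of Duox, at -1.28 (SE 0.32, adjusted p = 0.00606). Above were GstS1 (0.45, SE 0.06, adjusted p = 1.2e-05), Cat (0.41) and Sod1 (0.33). Only 3 were above 0 without control replicate 3, fos replicate 1 or scrib replicate 1. Of 13 immune genes 5 were below 0, among them the NF-kB factor genes Rel (-0.45, SE 0.06, adjusted p = 1.5e-05) and dl (-0.47, SE 0.10, adjusted p = 0.00118) and the peptidoglycan sensor PGRP-SA, which rose in both backgrounds (3.25 and 2.00, interaction -1.24, SE 0.26, adjusted p = 0.00137). Only 3 of these were below 0 without control replicate 2, fos replicate 2, scrib fos replicates 2 or 3, or scrib replicate 3. The antimicrobial peptide genes Drs, AttA and AttB were at 2.04 CPM or less in every library and were not called.

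Among the largest interactions above 0 were those of genes of cuticle and lens. Cpr97Ea (FBgn0039480; 3R, dm6 positions 27083130 to 27087778), a cuticle protein gene, was at 38.9, 34.7 and 37 CPM in control, 1.09, 1.47 and 1.09 in scrib, 30.9, 37.5 and 41.8 in fos, and 14.7, 15.2 and 15.3 in scrib fos. It was nearly lost in scrib, lay between in scrib fos, and overlapped in control and fos. Its interaction was 3.63 (SE 0.17, adjusted p = 2.93e-11). retinin (FBgn0040074; 3L, dm6 positions 16331933 to 16332789), a protein of the corneal lens, was at 1.5, 1.62 and 1.34 CPM in control, 0.637, 0.891 and 0.752 in scrib, 1.3, 1.52 and 2.71 in fos, and 12.8, 12.6 and 13.5 in scrib fos. Only the scrib fos libraries were high, above 12 CPM, and the scrib libraries were the lowest, with an interaction of 3.79 (SE 0.32, adjusted p = 2.57e-08). TwdlE, a Tweedle cuticle gene, went from 17.4 ± 1.85 to 104 ± 7.7 CPM without fos and was not called with it (-0.14, adjusted p = 0.709), for an interaction of 2.72 (SE 0.40, adjusted p = 0.00026). Its exons overlap those of lectin-28C, which moved alike (2.53), and the reads of this pair could not be told apart. The serpin gene Spn43Aa was at 391, 358 and 305 CPM in control, 63.4, 51.6 and 48.7 in scrib, 287, 314 and 373 in fos, and 215, 294 and 306 in scrib fos. It was low in scrib only (interaction 2.43, SE 0.25, adjusted p = 9.74e-06). The potassium channel gene SK (2.47, SE 0.16, adjusted p = 1.34e-09) and ect (2.54, SE 0.28, adjusted p = 1.27e-06) also fell more with fos intact than without.

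Genes raised in both mutants, and more in scrib fos, had smaller interactions. ltl, a leucine-rich repeat protein gene, was at 19.9, 18.9 and 16.6 CPM in control, 32.6, 35.5 and 25.6 in scrib, 19.5, 19.8 and 17.7 in fos, and 59.7, 60.6 and 61 in scrib fos. The order was scrib fos above scrib above both references, without overlap, and the interaction was 0.91 (SE 0.17, adjusted p = 0.000878). out, a transporter gene, had one of 1.03 (SE 0.14, adjusted p = 1.39e-05) and serp, a chitin deacetylase gene, of 0.49 (SE 0.11, adjusted p = 0.00219). phr, a photolyase gene, had one of 1.01 (SE 0.11, adjusted p = 9.64e-07) and another order: it was at 77.4 ± 2.43, 79 ± 5.01, 28.7 ± 2.62 and 59.1 ± 6.34 CPM in control, scrib, fos and scrib fos, so it was lowest in fos.

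**Figure D4:**
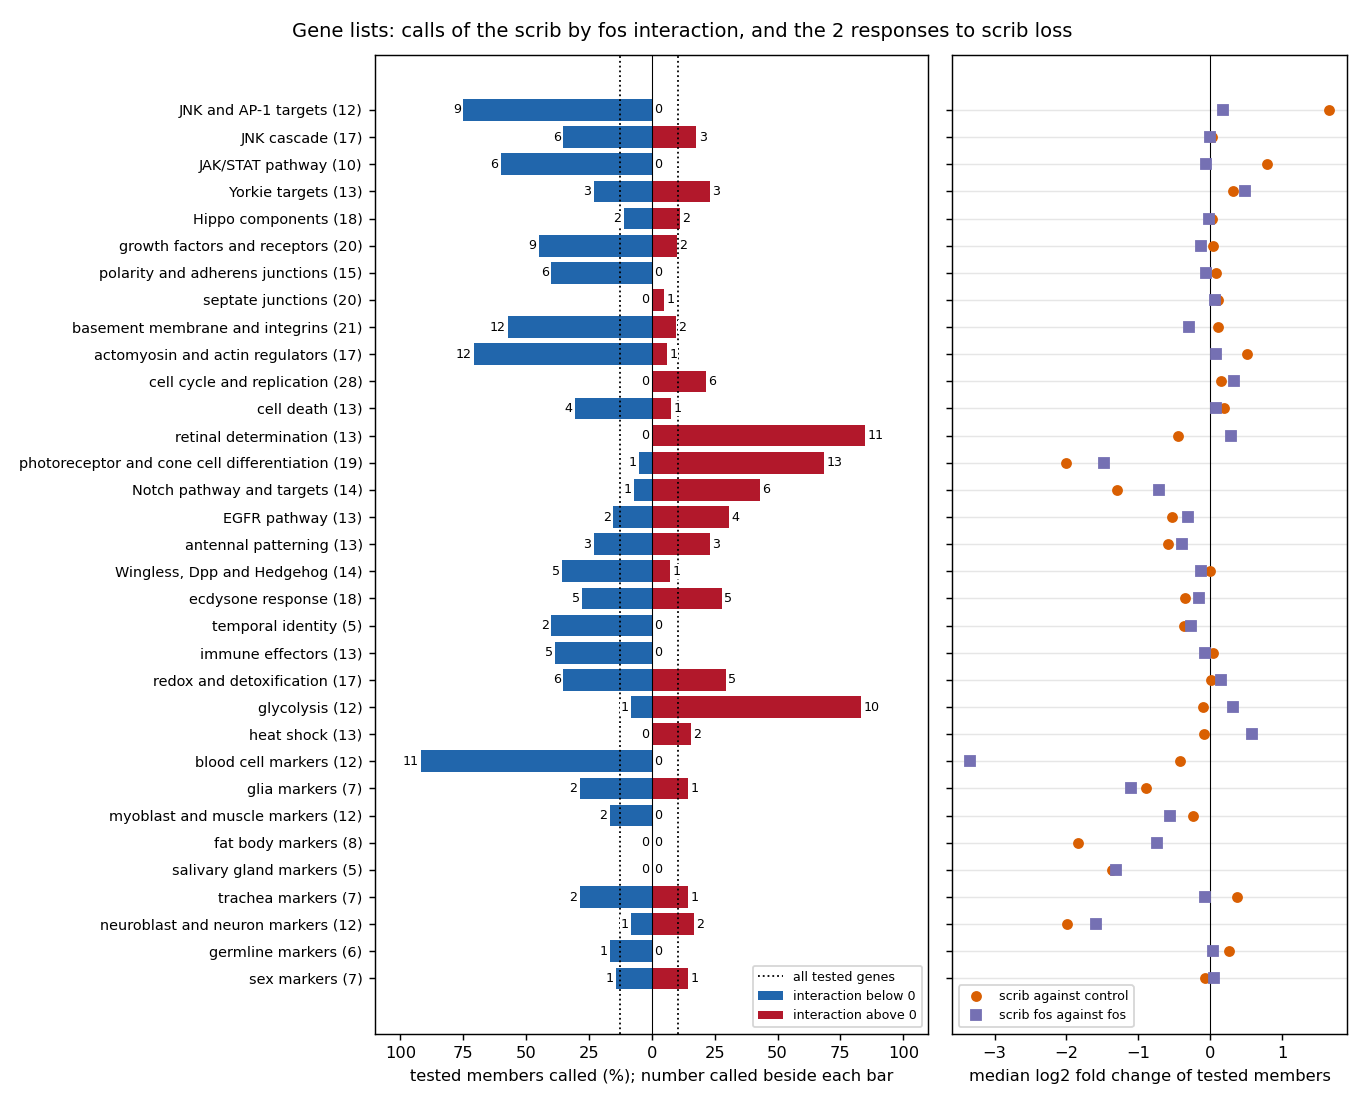
Left, percent of the tested members of each gene list (number tested in brackets) with a called interaction below 0 (blue) or above 0 (red), with the number called beside each bar and dotted lines at 12.7% and 10.6%, the shares of all tested genes. Right, median log2 fold change of each list in scrib against control (circles) and in scrib fos against fos (squares); the largest gaps are in blood cell markers, JNK and AP-1 targets and fat body markers, the last with no gene called.

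The share of called genes in the other marker lists, blood cells aside, ran from 0% in fat body and salivary gland markers to 42.9% in trachea and glia markers, against 23.2% of all tested genes. Of 12 myoblast and muscle markers 2 were below 0, zfh1 (-1.04, SE 0.17, adjusted p = 0.000255) and the myosin light chain gene Mlc2 (-1.42, SE 0.21, adjusted p = 0.000219), and the summed level of the list was 338 to 406 CPM in control and scrib, 248 to 343 in fos and 195 to 211 in scrib fos. Without scrib fos replicate 3 the number was 4. Fat body and salivary gland markers were called in none of 8 and 5 genes, at summed levels of at most 56.3 and 5.19 CPM. The summed level of the fat body markers ranged from 16.5 to 47.7 CPM in control, 2.75 to 9.25 in scrib, 8.12 to 56.3 in fos and 4.95 to 34.7 in scrib fos, and its part in the results was not tested. Of 12 neuroblast and neuron markers, which include insc, 2 were above 0, mira (0.61) and Syt1 (0.79), or 5 without scrib fos replicate 3, and 10 of the list fell in each background. Trachea markers gave calls for kni, knrl and serp only. Germline markers gave 1 call (piwi, -0.62, lost in 3 of the 12 fits that left out 1 library) and sex markers 2: dsx (0.47), lost without scrib fos replicate 1 (adjusted p = 0.053), and fru (-1.15, SE 0.29, adjusted p = 0.0112), while the dosage compensation RNA roX1 was not called.

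The genes with a called interaction were then followed in the 6 libraries that it does not use. In CtBP scrib against CtBP, where fos is intact, scrib loss changed 6014 genes (55.5%), 28.9% of all tested genes upward and 26.6% downward. Of the 1372 genes with an interaction below 0, 1026 rose there (74.8%) and 96 fell (7%). Of the 1145 with an interaction above 0, 780 fell (68.1%) and 65 rose (5.68%). Of the genes with no call, 24.5% rose and 24.2% fell. The interaction subtracts the change in scrib, so its calls select in part for a rise or fall in scrib. Genes with no call were not matched for that change. These shares therefore describe the scrib response in other libraries with fos intact and do not measure dependence on fos. Ilp8 rose by 5.47 in that background, upd1 by 4.44, Mmp1 by 4.30 and Tig by 3.74. Of the 12 JNK and AP-1 targets 9 rose there, with a median of 1.95. For the retinal determination genes 12 of 13 fell (median -1.66), and Optix, which rose in scrib, fell by 0.67 there. For the blood cell markers 6 of 12 fell (median -0.52).

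The response in the fos mutant was also set directly against that in the CtBP mutant, a comparison without the control and scrib libraries that shares the fos and scrib fos libraries with the interaction. It differed in 3606 genes (33.3%), 1833 below 0 (16.9%) and 1773 above (16.4%). Ilp8 differed by -5.17 (adjusted p = 2.68e-05), upd1 by -4.76 (adjusted p = 5.96e-10) and Cpr97Ea by 3.36 (adjusted p = 7.19e-12). The blood cell marker NimC1 differed by -3.38 (adjusted p = 2.63e-06). For vn no difference was called (0.02, adjusted p = 0.91): it rose by 0.46 in the CtBP mutant, by 0.48 in the fos mutant and by 1.19 with both genes intact.

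**Figure D5:**
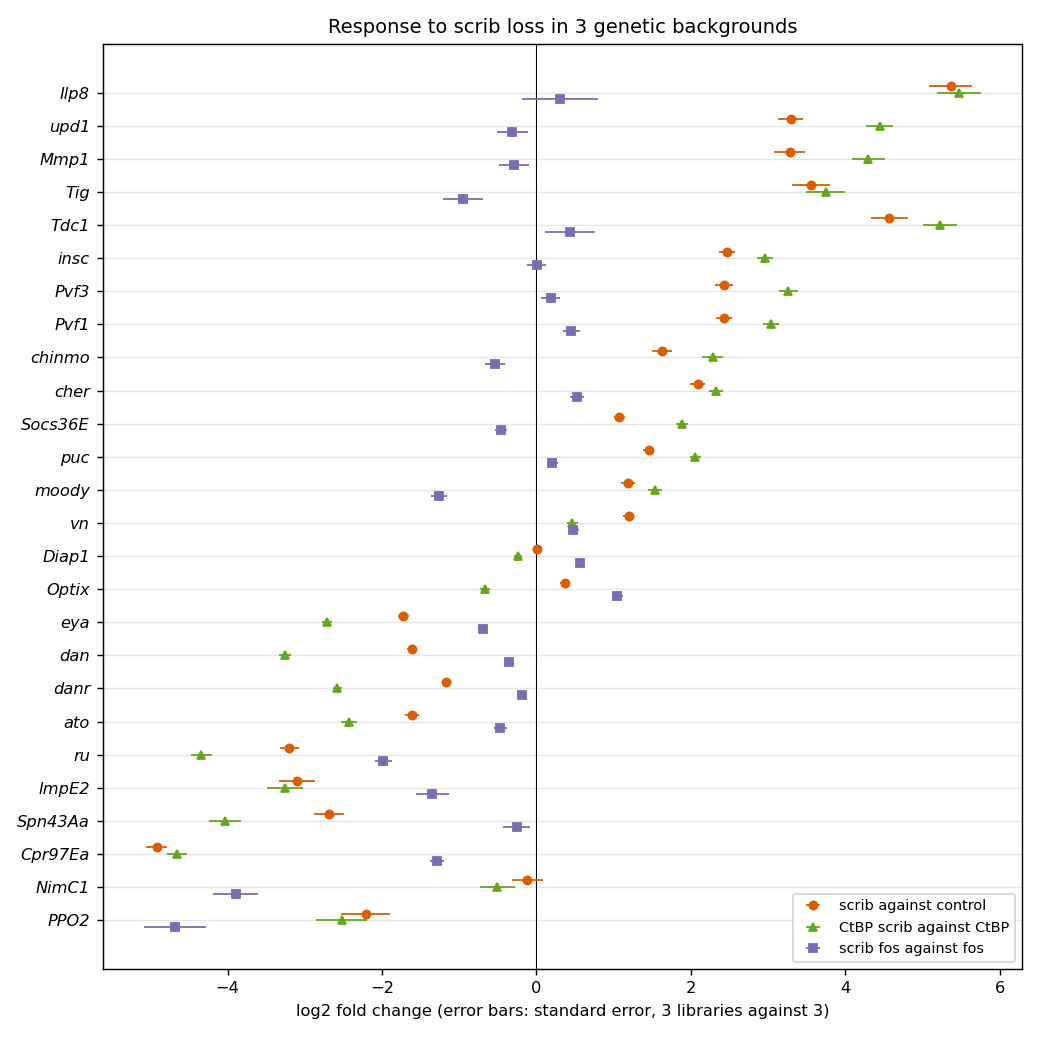
Log2 fold change with scrib loss for 26 genes in 3 genetic backgrounds, with bars of 1 standard error from 3 libraries against 3. From Ilp8 to moody both values with fos intact (circles and triangles) lie above 1 and the value in the fos mutant (squares) lies well to their left; from eya to Cpr97Ea the squares lie to the right of both, and for NimC1 and PPO2 to the left; for vn the triangle lies with the square.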

How the data were processed

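RNA of sorted eye-antennal disc cells was sequenced from TruSeq libraries, per the labels' protocols. The deposited values are whole-number read counts per gene, which the authors made with Subread and featureCounts on dm6, per the submitters' processing notes, which also name edgeR. Tool versions, annotation and strand setting were not given in the sources used here. Gene positions, symbols and overlaps came from an Ensembl annotation of the same dm6 assembly, joined by gene identifier. Here the counts of all 18 libraries entered 1 model with a mean per genotype in edgeR 4.0.16 (R 4.3.3), with filterByExpr, TMM factors, robust quasi-likelihood tests and Benjamini-Hochberg adjustment over the 10834 genes tested (6695 removed). The spread rests on 12 residual degrees of freedom, with a biological coefficient of variation of 8.88%. Standard errors are the absolute log2 fold change divided by the square root of F. The 12 libraries of the interaction held 25672312 to 35510575 counts, and 3 counts corresponded to 0.0326 to 0.0379 CPM, for counting error only. Replicate libraries of a genotype differed by more than sampling noise. The script was tested on simulated data.

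A gene is called at an adjusted p below 0.05. Genes were named by rule: for each sign of the interaction and of the change in scrib, the 7 largest interactions among genes called in every fit that left out 1 library, with a mean of at least 10 CPM in a genotype and a gene name; the 2 largest of any symbol; the mutated genes; and the 3 members of smallest p in each list. Other list members are named by value or to account for a list. The comparisons and the 33 lists (438 genes, 435 matched, 422 tested, 9 by an older symbol) were chosen with earlier results of these data known. Some genes are in more than 1 list. Counts of 37 mitochondrial genes were not used here. Same-numbered libraries are not tied to a shared animal, day or batch by the labels, and the replicate number was not used as a block. Alternatives were DESeq2 1.42.0 and its size factors, 2 other filters, the 4 genotypes alone, a replicate block, and fits without 1 library or without replicate 1 of every genotype. No sequences are shown.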

Additional observations from a re-analysis of the deposited data

Results flagged for a closer look

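In 29 of the 440 genes named by rule or held in a list, scrib loss was called in opposite directions with and without fos. Over all 10834 tested genes such opposite calls numbered 168 with a rise and 81 with a fall when fos was intact. The interaction was called in every one of these, so its call adds nothing to them. Some of the 440 were named for the size of their interaction, so the shares cannot be compared directly. In 19 of the 29 the transcript rose with fos intact and fell in the fos mutant. These were CG5399 (interaction -7.05), Tig (-4.50), moody (-2.45), chinmo (-2.16), Ilp6 (-2.14), Socs36E (-1.54), knrl (-1.49), the glial gene wrapper (-1.49), Mlc2 (-1.42), Dfd (-1.16), Wbp2 (-0.84) and Mkk4 (-0.73). With them stood Pvr (-1.31), trol (-0.78), the fascin gene sn (-0.67), Myc (-0.61), the Nrf2 gene cnc (-0.55, from 0.32 to -0.23), the Hedgehog receptor gene ptc (-0.38) and par-1 (-0.32).

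In the other 10 the transcript fell with fos intact and rose without it. They were retinin (3.79), edl (1.14), the eye determination genes toe (0.86), eyg (0.83) and toy (0.70), and the glycolytic genes Tpi (0.76), Pfk (0.58), Gapdh2 (0.51), Pgk (0.47) and Pgi (0.46). All 29 kept the sign and the call of their interaction in each of the 12 fits that left out 1 library, but wrapper could not be tested under the filter of at least 5 CPM in 3 libraries. The summed level of the glial markers, which include moody and wrapper, was 115.2 to 123 CPM in scrib fos and 172 to 211 in the other genotypes. Of that sum moody itself made up a mean of 66.5 CPM in scrib and 9.27 in scrib fos. The muscle markers, which include Mlc2, summed to 195 to 211 CPM in scrib fos and 248 to 406 in the others. Mlc2 itself made up a mean of 84.3 CPM in scrib and 18.8 in scrib fos. These sums therefore do not measure the other markers alone, and their part in these results was not tested.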

How the results depend on the processing

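The number of genes with a called interaction was 2106 to 2519 when 1 of the 12 libraries was left out (951 to 1185 above 0 and 1155 to 1372 below) and 2216 to 2533 under the other settings. All 231 counts recomputed for the genotype comparisons stayed within 1.5 times their reported value. Of the 2517 called genes, 76.8% to 96% were also called under each alternative, and 1767 were called with the same sign in all 12 fits that left out 1 library. The share of calls below 0 was 54.5% as reported, 48.7% with DESeq2 size factors, 48% with DESeq2's Wald test and 46.3% with no filter on low counts; these settings moved the median interaction of all genes by at most 0.0397. On the scale of CPM differences, 2496 of the 2517 genes kept their sign. Of 2215 values recomputed for the named genes 38 lost their call and 23 gained one, and no called value changed sign. Sign changes of genes called in neither fit were not counted. The lost calls were those of kay, Hsp23, bou, Fbxl7, piwi and dsx given above, and of lft (adjusted p = 0.0724) and Syt1 (0.0529) without replicate 1 of every genotype. Of 1254 recomputed list counts, 77 fell and 32 rose by over 1.5 times, mostly from 1 or 2 genes.

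With the replicate number as a block 2483 genes were called, 1132 above 0 and 1351 below, and 2417 of them were among the 2517. The correlation of deviations between same-numbered libraries was -0.159 to 0.205, above 0.1 in 6 of 18 pairs. Between libraries of other numbers it was -0.203 to 0.181, above 0.1 in 3 of 36 pairs. Of 12 libraries, 8 were closest to their own number, and whether same-numbered libraries share a source was not tested. The numbers were not taken as pairs because the labels do not tie them to a shared animal, day or batch. Among named genes the block gained only the call of Syp (adjusted p = 0.041).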

Other observations

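The dependence on fos was spread over the genome. The interaction was called in 21% of the tested genes on the X, 24.1% on 2L, 24% on 2R, 23.9% on 3L and 23.6% on 3R, where scrib and kay lie, and in 12 of 96 (12.5%) on the fourth chromosome. None of the 6 tested Y-linked genes was called.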
